A study of Homo sapiens with 8 samples.

Results

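The genes described here are 32 genes of cholesterol and fatty acid synthesis and of the circuit that controls them. They were taken by symbol from a table of 60666 Ensembl gene IDs, and all 32 were found, each with 1 ID. All 32 also passed the filter that left 13493 genes for testing, with the lowest count of any member in any library at 88 (VLDLR). They fall by role into 7 genes from acetyl-CoA to farnesyl diphosphate (the mevalonate branch), 11 from squalene to cholesterol, 4 regulators, 3 genes of lipid uptake and transport, and 7 of the fatty acid branch.

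The cells were MRC5, a human lung fibroblast line in long use, and their RNA was sequenced in 4 groups of 2 libraries. The cells carried either a control short hairpin RNA (shMock) or 1 hairpin against the mitochondrial folate enzyme MTHFD2 (shMTHFD2), and each of these lines was sampled as control or with TGF-β1, written Tgfb1 in the labels. TGF-β1 is a cytokine that activates fibroblasts, and the series was made to see what knockdown of MTHFD2 does to transcription during that activation. The treatment text, which the labels attach to every sample, gives 4 ng without a volume and 24 h. A second hairpin, a rescue and untransduced cells are not among the libraries, so loss of MTHFD2 and any other difference between the 2 hairpin lines cannot be told apart. Nothing in the labels says that replicates were separate cultures. A p-value here reflects only how much libraries of the same group differ, pooled over the 4 groups and partly shared across genes. That difference may be technical. Groups follow the sample titles, because the genotype field of 3 shMTHFD2 samples names other genes and the extraction text speaks of another line (A549) and another hairpin.

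Library totals ran from 18162738 to 22221927 counts. Levels below are CPM (counts per 1000000 of a library size scaled by trimmed means, TMM). A log2 fold change is called at an edgeR adjusted p under 0.05. MTHFD2 itself stood at 58.7 and 57 CPM in shMock control, 256 and 257 in shMock TGF-β1, 14.9 and 18.7 in shMTHFD2 control and 93.6 and 91.7 in shMTHFD2 TGF-β1. Both shMTHFD2 groups were thus below their shMock partner. All 9 fibroblast markers examined were expressed (summed level 27455 to 30998 CPM in shMock control), while the epithelial KRT19 and SFTPC, the endothelial PECAM1 and CDH5, the T-cell marker CD3E and the adipocyte marker ADIPOQ had no count in any library. Some markers of other cell types were present. The leukocyte list summed to 101 to 106 CPM in shMock control, 53.4 to 58.5 in shMock TGF-β1, 74.8 to 76.3 in shMTHFD2 control and 47.1 to 51 in shMTHFD2 TGF-β1, and 1 of its 4 genes, the lysosomal CD68, was tested. CD68 fell in the knockdown without TGF-β1 (-0.45) and with TGF-β1 in shMock (-0.88) and shMTHFD2 (-0.63), and stood at -0.20, not called, in the knockdown with TGF-β1. Of the 7 epithelial genes, KRT8 and KRT18 were tested. Their list summed to 32.6 to 35.2, 28 to 32.1, 24.9 to 33 and 28.3 to 35.8 CPM in the same order of groups, and 1 call was made, KRT8 lower with TGF-β1 in shMock (-0.53). The part of these genes in the results was not tested. The endothelial KDR and TEK were expressed and fell with TGF-β1 in both lines, and their list summed to 96.7 to 108 CPM in shMock control and 42 to 47.2 CPM in shMock TGF-β1. The 10 proliferation genes summed to 240.5 to 254 CPM in shMock control, 157 to 184 in shMock TGF-β1, 178 to 197 in shMTHFD2 control and 146 to 158 in shMTHFD2 TGF-β1. Of the 10, 6 fell in the knockdown without TGF-β1 and 4 with it, and TGF-β1 lowered 6 in shMock and 2 in shMTHFD2. Their sum was highest in shMock control and lowest in shMTHFD2 TGF-β1, as was that of the sterol enzymes given below, and their part in the results was not tested. Fold changes also followed the GC content of the transcripts, with a Spearman correlation across genes of -0.285 for TGF-β1 in shMock, 0.329 for the knockdown with TGF-β1, -0.143 for the knockdown without it, 0.0232 for TGF-β1 in shMTHFD2 and 0.473 for the interaction. Genes are not independent replicates, and these values describe the libraries. Because several members are rich in GC (MVD 63.7%, TM7SF2 64.2%, FASN 65.3%) and others poor (STARD4 34.2%, MSMO1 38.1%), calls that are lost or gained when this trend is taken off are given with both values. In bulk RNA, fewer cells with a transcript and less of it per cell cannot be told apart.

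Cells build cholesterol from acetyl-CoA through mevalonate, farnesyl diphosphate and squalene, and the same acetyl-CoA feeds fatty acid synthesis. When sterol in the endoplasmic reticulum is low, SCAP escorts the membrane-bound SREBP transcription factors (encoded by SREBF1 and SREBF2) to the Golgi, where proteases release the part that enters the nucleus and switches on genes of both branches. INSIG proteins hold SCAP back when sterol is plentiful. The liver X receptors (LXR) work in the other direction: they sense oxidised sterols and switch on export genes such as ABCA1.

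Control by SREBP and LXR acts at the promoters, so the windows of a few members are shown. The 4 motifs counted include no LXR element, so whether a window holds an LXR site was not examined. They belong to genes whose level moved the same way in both knockdown comparisons, or carry a sterol regulatory element. RefSeq windows from 250 bases before to 50 after the start site (GRCh38.p14) were found for 28 of the 32 members, in 37 windows, and not for ACAT2, FASN, FDFT1 and SQLE. A CCAAT box, the site of the factor NF-Y that works beside SREBP, was spelled CCAAT on either strand in a window of 20 of the 28 members (71.4%), against 39.7% of all 27305 genes with a window. The sterol element spelled TCACNCCAC on either strand was found in SREBF2 alone among these members (3.57%, against 1.39% of all genes). An E-box spelled CACGTG, a palindrome, stood in 5 members (17.9% against 8.77%), and the GC box GGGCGG in 27 (96.4% against 48.3%). All members passed the expression filter, while the 27305 genes include genes that did not. Shares among the 13493 tested genes were not counted, so these contrasts are not shown to be particular to the members. Each motif was counted by itself, so matches of different motifs could overlap, although none do in the windows printed here. A match is a run of letters, not a measured site. Other spellings of a motif, and sites outside the window, were not counted, so a window without a match is not shown to lack a site. Each window is written 5′ to 3′ along the gene in lower case, with capitals for the sterol element, CCAAT boxes and E-boxes (GC boxes are left in lower case). The window of SREBF2 (chr22:41832855-41833154, plus strand) holds the sterol element and, after it, a CCAAT box on the opposite strand. The window of the desaturase gene SCD (chr10:100346983-100347282, plus strand) holds a pair of CCAAT boxes. For the desaturase gene FADS2 the second of its windows is shown (chr11:61816154-61816453, plus strand), with 1 CCAAT box. The first window, from 61815953 to 61816252, holds none of the 4 motifs. The window of the receptor gene VLDLR (chr9:2621537-2621836, plus strand), which also fell in both knockdown comparisons, holds neither a CCAAT box nor an E-box. The window of the exporter gene ABCA1 (chr9:104928106-104928405, minus strand), which rose in both, holds an E-box and no CCAAT. The absence of CCAAT is thus shared by a gene that fell and the gene that rose.
SREBF2: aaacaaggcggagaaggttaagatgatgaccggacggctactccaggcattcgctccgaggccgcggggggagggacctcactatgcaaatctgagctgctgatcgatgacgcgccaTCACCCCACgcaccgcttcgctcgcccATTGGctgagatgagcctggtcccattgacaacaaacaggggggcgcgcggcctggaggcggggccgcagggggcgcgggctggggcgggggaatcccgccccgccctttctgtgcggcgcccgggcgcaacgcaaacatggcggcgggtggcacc
SCD: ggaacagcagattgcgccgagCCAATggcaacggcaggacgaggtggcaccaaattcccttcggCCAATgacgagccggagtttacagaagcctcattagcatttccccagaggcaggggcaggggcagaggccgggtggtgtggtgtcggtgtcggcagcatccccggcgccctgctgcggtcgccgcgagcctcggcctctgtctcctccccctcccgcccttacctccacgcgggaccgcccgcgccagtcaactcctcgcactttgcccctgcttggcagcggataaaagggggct
FADS2: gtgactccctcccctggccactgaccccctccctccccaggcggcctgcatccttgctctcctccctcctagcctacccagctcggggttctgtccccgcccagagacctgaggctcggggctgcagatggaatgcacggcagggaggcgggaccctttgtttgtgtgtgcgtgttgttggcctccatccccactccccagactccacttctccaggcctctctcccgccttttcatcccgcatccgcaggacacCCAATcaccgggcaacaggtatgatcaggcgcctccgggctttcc
VLDLR: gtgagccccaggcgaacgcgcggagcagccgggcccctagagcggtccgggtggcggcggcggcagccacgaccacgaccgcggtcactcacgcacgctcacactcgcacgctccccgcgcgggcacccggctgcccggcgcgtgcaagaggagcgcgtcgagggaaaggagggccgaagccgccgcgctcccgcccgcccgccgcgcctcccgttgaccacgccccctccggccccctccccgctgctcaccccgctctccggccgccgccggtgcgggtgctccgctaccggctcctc
ABCA1: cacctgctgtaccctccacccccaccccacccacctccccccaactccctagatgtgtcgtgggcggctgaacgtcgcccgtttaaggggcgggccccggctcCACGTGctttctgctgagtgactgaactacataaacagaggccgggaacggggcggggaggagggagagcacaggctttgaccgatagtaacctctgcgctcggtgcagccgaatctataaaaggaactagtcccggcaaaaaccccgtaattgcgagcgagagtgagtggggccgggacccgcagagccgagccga

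Per kilobase of the longest annotated transcript, the members covered a wide range of levels. SCD, which puts the first double bond into saturated fatty acids, was the highest at 363 CPM per kb (mean of the 8 libraries), followed by FDPS at 202, the citrate lyase gene ACLY at 179.5, INSIG1 at 173 and FADS2 at 152. The lowest were VLDLR at 1.03, HSD17B7 at 8.57, ACACA at 9.44 and ELOVL6 at 9.74. Within the regulators, SREBF2 at 52.3 stood above SREBF1 at 35.6 and SCAP at 14.2.

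Without TGF-β1, the knockdown cells held less of 11 sterol and fatty acid transcripts and 2.1 times the ABCA1. Of the 32 members, 11 fell, 1 rose and 20 were not called in shMTHFD2 control against shMock control. Over all tested genes 8.19% fell and 3.25% rose. The members' median log2 fold change was -0.23 against -0.01 over all genes, and 27 of the 32 values lay below 0. The 11 lower members came from each role. They were ACAT2, MVD and FDPS in the mevalonate branch, SQLE, EBP and DHCR7 after squalene, the regulator INSIG1, and the receptor VLDLR. ACLY, SCD and FADS2 made up the rest, in the fatty acid branch. Summed over the 18 enzymes of the mevalonate and squalene steps, the level was 4602 to 4770 CPM in shMock control and 3882 to 3960 CPM in shMTHFD2 control. The fatty acid branch summed to 4939 to 5079 and 4018 to 4150 CPM. The count of 12 called members fell to 2 without shMTHFD2 control 2, which left ABCA1 and FADS2, and to 4 without shMock control 2. The fit with offsets for GC and length had 14 members lower and 1 higher. Over all tested genes it had 1191 lower and 578 higher, against 1105 and 438 without the offsets. On library totals in place of TMM, 8 members were lower and 1 higher. The genes called then split into 751 higher and 740 lower, against 438 and 1105.

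With TGF-β1 in both lines, 8 members fell, 2 rose and 22 were not called in shMTHFD2 against shMock, beside 8.23% lower and 4.83% higher over all tested genes. ACAT2, HMGCS1, SQLE, CYP51A1, MSMO1, VLDLR, SCD and FADS2 fell, and ABCA1 and SREBF1 rose. The median over members was -0.11 against 0.01 over all genes. ACAT2, SQLE, VLDLR, SCD and FADS2 fell both without and with TGF-β1, and ABCA1 rose in both. The 2 comparisons share no library. They do share the hairpin lines and 1 fit of all 8 libraries, so they are not independent. On library totals ACAT2 and SCD lost their call without TGF-β1 (adjusted p = 0.055 and 0.064), and SCD and FADS2 with it (adjusted p = 0.091 and 0.11), which leaves SQLE and VLDLR lower in both under that scaling. The sterol enzymes summed to 3955 to 4153 CPM in shMock TGF-β1 and 3617 to 3672 CPM in shMTHFD2 TGF-β1, and the fatty acid branch to 5142 to 5660 and 4503 to 4786 CPM. The count of 10 called members became 4 without shMock TGF-β1 1, 5 without shMTHFD2 TGF-β1 1 and 3 without shMTHFD2 TGF-β1 2. Library totals gave 4 lower and 5 higher members, with 1338 higher and 718 lower genes against 652 and 1110. The balance of directions in this comparison thus depended on the scaling.

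**Figure D1:**
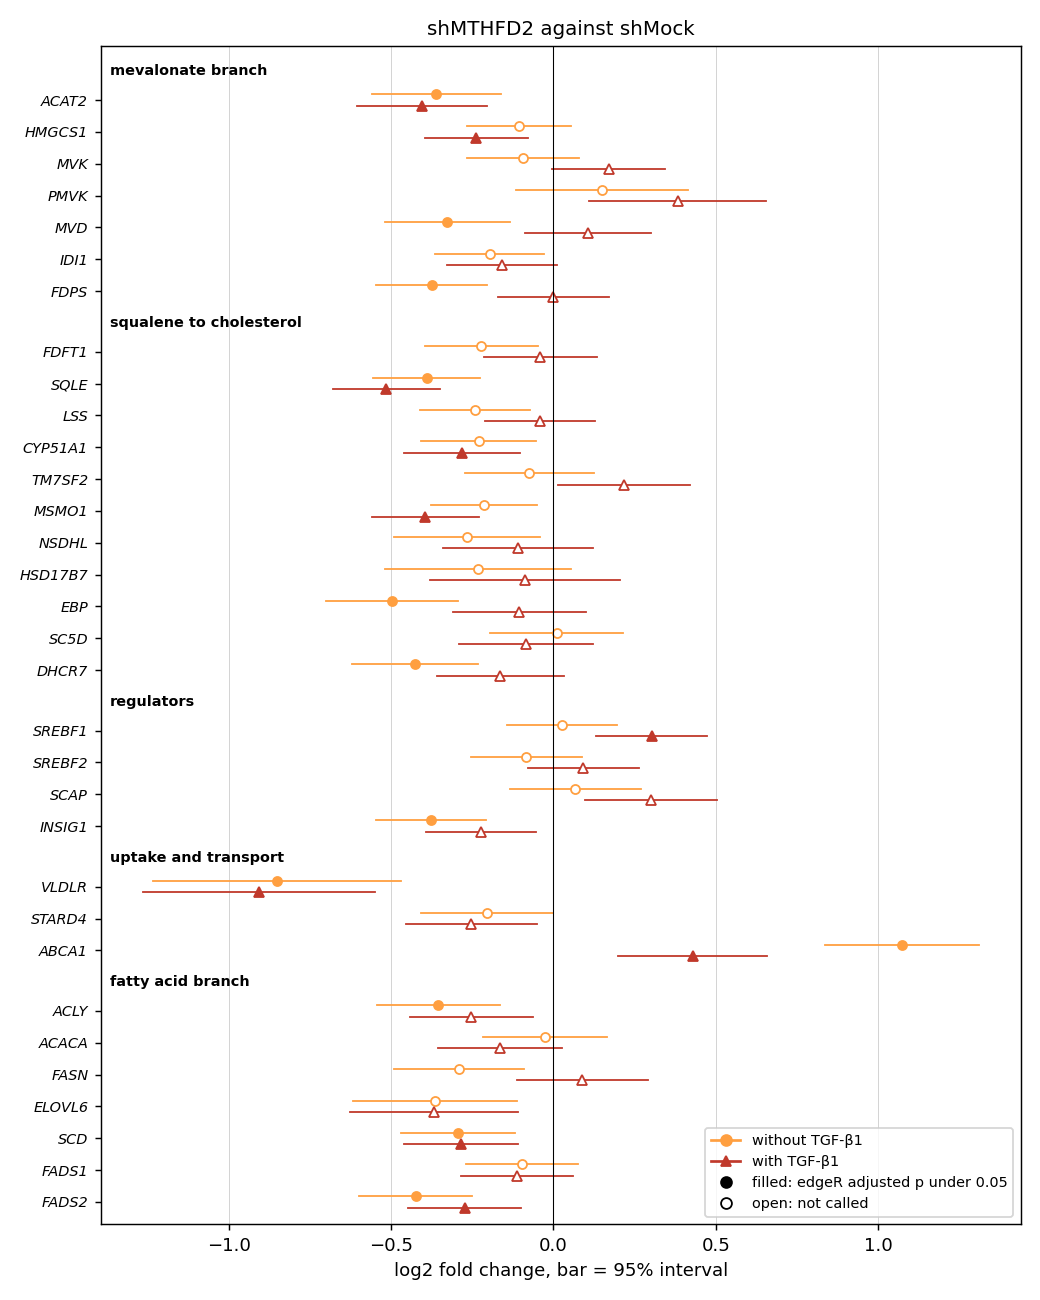
Log2 fold change of each member in shMTHFD2 against shMock (x axis) without TGF-β1 (circles) and with it (triangles), with 95% intervals and filled symbols for calls. Most symbols lie left of 0, VLDLR farthest at -0.85 and -0.91, and ABCA1 lies farthest right at 1.07 and 0.43.

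TGF-β1 in shMock cells moved the members in both directions, with 9 lower, 6 higher and 17 not called, against 18.1% lower and 17.3% higher genes overall. Lower were MVK, PMVK, MVD and FDPS of the mevalonate branch, LSS, TM7SF2 and NSDHL after squalene, SCAP and FASN. Higher were SQLE, VLDLR, STARD4, ABCA1, ACACA and SCD. These 6 of 32 are a share close to that of all genes. In shMTHFD2 cells TGF-β1 lowered LSS and raised VLDLR, ABCA1 and SCD, and the other 28 members were not called, against 11% lower and 12.8% higher genes. These 4 members were called in the same direction in shMock. In shMTHFD2 the 1 lower and 3 higher of 32 members are smaller shares than those of all genes. The interaction test, which asks whether the TGF-β1 response differed between the lines, called none of the 32 members, against 0.0889% of all genes (edgeR quasi-likelihood). At an unadjusted p under 0.05 there were 8 of the 32 members, beside 1717 of the 13493 tested genes. DESeq2 called 1 member, ABCA1, and edgeR without a filter on low counts called ABCA1 and MVD. The smaller number of calls in shMTHFD2 is therefore not shown to be a smaller response. The 15 calls in shMock became 10 with GC and length offsets (4 higher and 6 lower, 8 of them among the 15) and 9 without shMock control 2. Library totals moved the median of all genes from -0.02 to -0.16 in shMock and from -0.01 to -0.12 in shMTHFD2. They gave 3 higher and 17 lower members in shMock and 3 higher and 9 lower in shMTHFD2. Genes split in shMock into 1571 higher and 3929 lower (against 2329 and 2443), and in shMTHFD2 into 1222 and 2453 (against 1725 and 1488). With GC and length offsets, genes split into 2340 higher and 2252 lower in shMock, and into 1930 and 1679 in shMTHFD2. The 4 calls in shMTHFD2 became 8 without either shMock TGF-β1 library and 7 with the offsets.

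**Figure D2:**
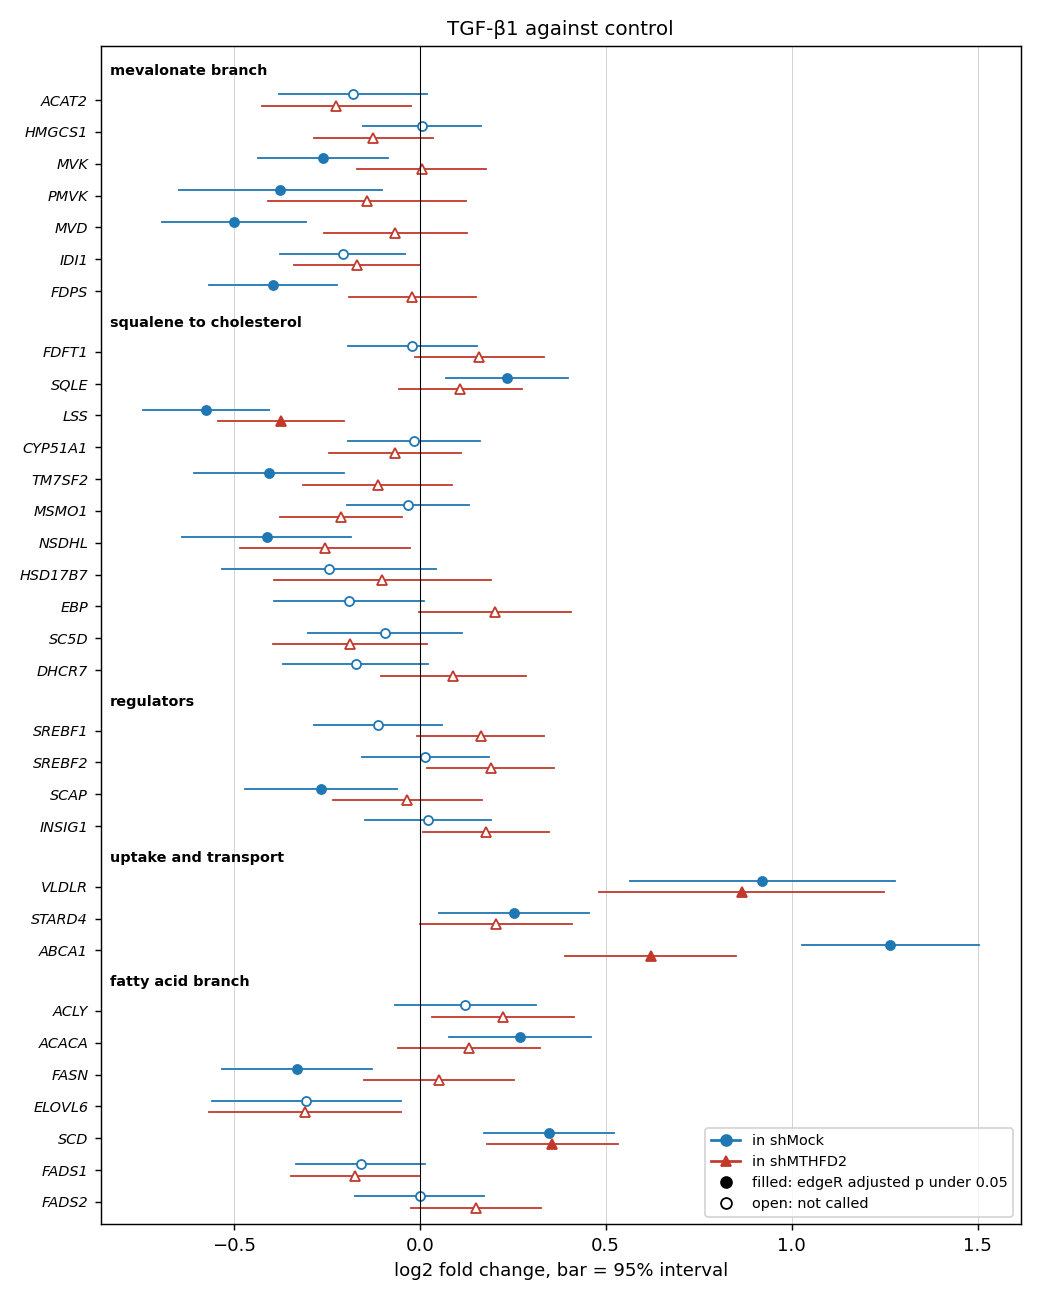
Log2 fold change of each member with TGF-β1 against control (x axis) in shMock (circles) and in shMTHFD2 (triangles), with 95% intervals and filled symbols for calls. ABCA1 and VLDLR lie farthest right in both lines, and MVD is at -0.50 in shMock and -0.07 in shMTHFD2.

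**Figure D3:**
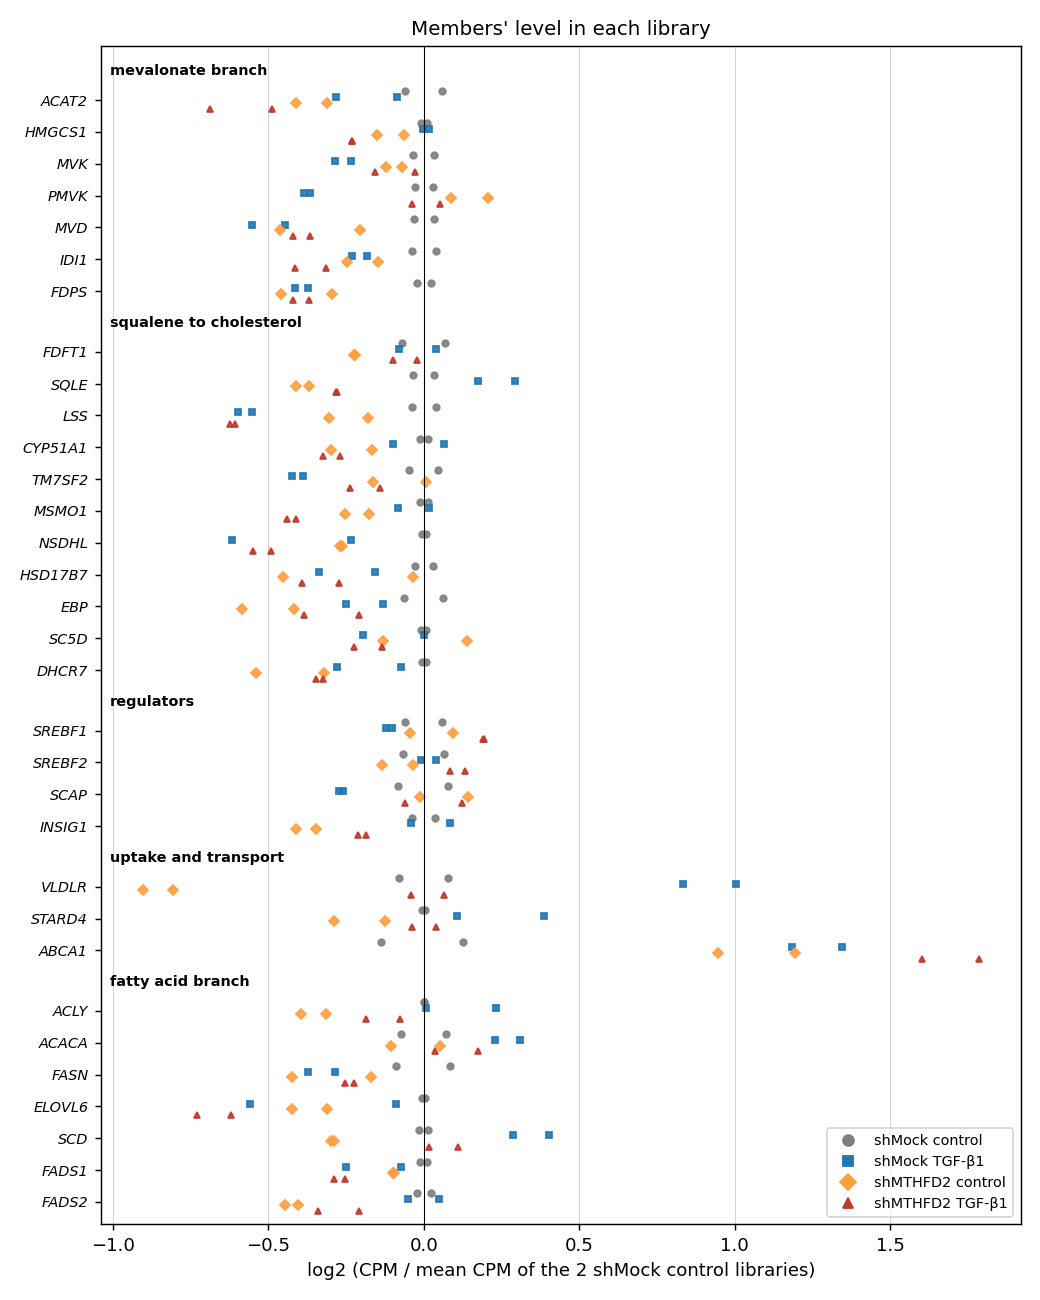
Level of the 32 members in each of the 8 libraries, as log2 of the ratio to the mean of the 2 shMock control libraries (x axis), with 1 symbol per library and a shape and colour per group. The shMTHFD2 libraries of most enzymes lie left of 0, while the ABCA1 libraries of the other 3 groups all lie to the right.

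ABCA1 and VLDLR, of uptake and transport, had the largest changes of the 32 members in the knockdown without TGF-β1 and with TGF-β1 in each line. ABCA1 pumps cholesterol and phospholipid out of the cell onto apolipoproteins and is a well-known LXR target. Its level was 69.9 and 58.2 CPM in shMock control, 145 and 163 in shMock TGF-β1, 123 and 147 in shMTHFD2 control and 194 and 221 in shMTHFD2 TGF-β1. The shMock control libraries were the lowest and the shMTHFD2 TGF-β1 libraries the highest, and neither pair overlapped another group. The other 2 groups overlapped each other. Without TGF-β1, ABCA1 was 2.1-fold higher in shMTHFD2 (log2 value 1.07 with SE 0.11; edgeR adjusted p = 2.3e-05). With TGF-β1 it was 1.35-fold higher (log2 value 0.43 with SE 0.11; edgeR adjusted p = 0.017). TGF-β1 raised it 2.4-fold in shMock (edgeR adjusted p = 3.7e-07) and 1.54-fold in shMTHFD2 (edgeR adjusted p = 4.5e-04). The difference of these responses was -0.64 (95% interval -0.97 to -0.32). EdgeR did not call it (adjusted p = 0.14), while DESeq2 did (adjusted p = 0.0091), as did edgeR without shMTHFD2 control 1 (adjusted p = 0.027). With TGF-β1 the knockdown call was lost without shMock TGF-β1 1 or shMTHFD2 TGF-β1 2 (adjusted p = 0.13).

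VLDLR, a receptor that takes up triglyceride-rich lipoproteins, moved in the opposite way to ABCA1 in the knockdown and in the same way with TGF-β1. Its libraries held 8.03 and 8.96 CPM in shMock control, 17 and 15.1 in shMock TGF-β1, 4.85 and 4.54 in shMTHFD2 control and 8.26 and 8.88 in shMTHFD2 TGF-β1. The shMock control and shMTHFD2 TGF-β1 libraries overlapped, shMock TGF-β1 was the highest group and shMTHFD2 control was the lowest group. The knockdown lowered VLDLR 1.81-fold without TGF-β1 (edgeR adjusted p = 0.0063) and 1.88-fold with it (edgeR adjusted p = 0.0025). TGF-β1 raised it 1.89-fold in shMock and 1.82-fold in shMTHFD2. The knockdown call of VLDLR without TGF-β1 was lost without shMock control 2 or shMTHFD2 control 2. STARD4, which carries cholesterol between membranes, read 240.3 and 239 CPM in shMock control, 258 and 313 in shMock TGF-β1, 196 and 219.8 in shMTHFD2 control and 233 and 246 in shMTHFD2 TGF-β1. It rose with TGF-β1 in shMock (0.25, edgeR adjusted p = 0.0496), a call close to the threshold. It was lost with GC and length offsets (0.11, adjusted p = 0.26) and without either shMock control library, shMock TGF-β1 2 or shMTHFD2 TGF-β1 2 (adjusted p = 0.061 to 0.42). With the offsets STARD4 was called lower in the knockdown without TGF-β1 (-0.25, adjusted p = 0.033, against -0.20, adjusted p = 0.2) and higher with TGF-β1 in shMTHFD2 (0.23, adjusted p = 0.028, against 0.21, adjusted p = 0.14).

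**Figure D4:**
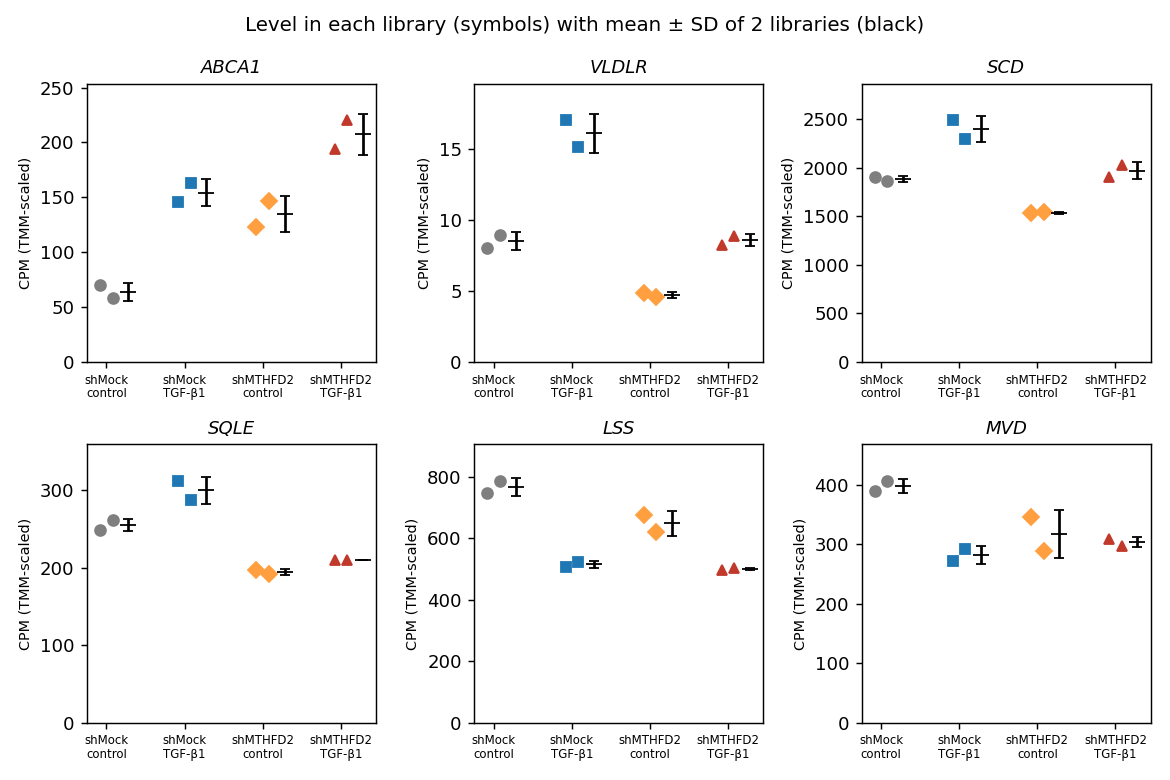
CPM of 6 members in each library (y axis from 0), with symbols for the 2 libraries of a group and black bars for their mean ± SD. ABCA1 is lowest in shMock control and highest in shMTHFD2 TGF-β1, VLDLR and SCD are higher with TGF-β1 in each line, SQLE is lower in both shMTHFD2 groups, and LSS is lower in both groups with TGF-β1.

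In the mevalonate branch, 3 of 7 genes fell in the knockdown without TGF-β1, 2 with it, and 4 fell with TGF-β1 in shMock. The shares of all tested genes that fell were 8.19%, 8.23% and 18.1%. No member of the branch was called higher in any comparison of the main fit. In the knockdown with TGF-β1, PMVK was at 0.38 and not called (edgeR adjusted p = 0.064). On library totals it was called higher there (0.47, adjusted p = 0.026). ACAT2, the cytosolic thiolase that joins acetyl-CoA units at the start of the pathway, read 285 and 309 CPM in shMock control, 280.1 and 245 in shMock TGF-β1, 223 and 239.5 in shMTHFD2 control and 212 and 185 in shMTHFD2 TGF-β1. The shMTHFD2 libraries lay below those of shMock under both conditions. Its log2 fold change was -0.36 without and -0.40 with TGF-β1 (edgeR adjusted p = 0.021 and 0.011). HMGCS1, which makes HMG-CoA, read 388 and 382 CPM in shMock control, 384 and 389 in shMock TGF-β1, 347 and 368 in shMTHFD2 control and 328 and 328 in shMTHFD2 TGF-β1. It was lower in shMTHFD2 with TGF-β1 by a narrow margin (-0.24, edgeR adjusted p = 0.0496). Offsets for GC and length ended that call (-0.12, adjusted p = 0.27), as did the replicate block.

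MVK, PMVK, MVD and FDPS were the genes of this branch that TGF-β1 lowered in shMock. MVD, which decarboxylates mevalonate diphosphate, held 389 and 407 CPM in shMock control, 272 and 292 in shMock TGF-β1, 346 and 289 in shMTHFD2 control and 309 and 297 in shMTHFD2 TGF-β1. All 6 libraries outside shMock control lay below the 2 within it. The change with TGF-β1 in shMock was -0.50 (SE 0.09, edgeR adjusted p = 5.3e-04) while the knockdown without TGF-β1 gave -0.33 (edgeR adjusted p = 0.03). With the offsets the first was -0.23 (adjusted p = 0.012), smaller than without offsets and still called, and the second -0.23 (adjusted p = 0.031). FDPS, the synthase of farnesyl diphosphate, held 487 and 503 CPM in shMock control, 382 and 371 in shMock TGF-β1, 403 and 360.0 in shMTHFD2 control and 383 and 369.7 in shMTHFD2 TGF-β1. Again shMock control lay above the rest. Its values were -0.38 for the knockdown without TGF-β1 (edgeR adjusted p = 0.0069) and -0.39 for TGF-β1 in shMock (edgeR adjusted p = 0.0013; -0.22 with the offsets, adjusted p = 0.018). With TGF-β1, FDPS did not differ between the lines beyond the spread (95% interval of the log2 fold change -0.17 to 0.17).

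The kinases of the branch, MVK and PMVK, are its least expressed enzymes per kilobase. MVK read 85.7 and 89.8 CPM in shMock control, 72 and 74.6 in shMock TGF-β1, 83.7 and 80.6 in shMTHFD2 control and 78.8 and 86.1 in shMTHFD2 TGF-β1. PMVK read 17.4 and 18.1 CPM in shMock control, 13.6 and 13.7 in shMock TGF-β1, 20.4 and 18.8 in shMTHFD2 control and 18.3 and 17.3 in shMTHFD2 TGF-β1. In both, the shMock TGF-β1 libraries were the lowest, and the fall with TGF-β1 in shMock was -0.26 for MVK (edgeR adjusted p = 0.022) and -0.37 for PMVK (edgeR adjusted p = 0.033). GC and length offsets ended these calls (-0.13, adjusted p = 0.2, and -0.14, adjusted p = 0.39). IDI1, the isomerase of the pathway's building block, was not called in any comparison. It ranged from 197 to 269.7 CPM. With the offsets IDI1 was called lower with TGF-β1 in shMock (-0.27, adjusted p = 0.0069, against -0.21, adjusted p = 0.054, without them), and it was called on library totals too (-0.34, adjusted p = 0.0031). Calls in this branch that single libraries decided were those of ACAT2 without TGF-β1, lost without shMock control 2 or either shMTHFD2 control library (adjusted p = 0.067 to 0.18), and with it, lost without shMock TGF-β1 1 or shMTHFD2 TGF-β1 2 (adjusted p = 0.11 to 0.12). HMGCS1 lost its call without either shMock control library or any 1 of the 4 TGF-β1 libraries (adjusted p = 0.075 to 0.2). The TGF-β1 call of MVK went without either shMock control library or shMock TGF-β1 1 (adjusted p = 0.052 to 0.14), and that of PMVK without either shMock control library, shMTHFD2 control 1 or either shMock TGF-β1 library (adjusted p = 0.051 to 0.15). The knockdown calls of MVD were lost without either shMock control library or shMTHFD2 control 2 (adjusted p = 0.074 to 0.33) and of FDPS without shMock control 2 or shMTHFD2 control 2 (adjusted p = 0.07 to 0.12). Their TGF-β1 calls in shMock held without each of the 8 libraries.

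From squalene onward, 3 of 11 genes fell in the knockdown without TGF-β1, 3 with it, and TGF-β1 in shMock lowered 3 and raised 1. Over all tested genes 8.19% and 8.23% fell in the knockdown, and TGF-β1 in shMock lowered 18.1% and raised 17.3%, a share above that of 1 gene in 11. SQLE, squalene epoxidase, a control point of the late pathway, read 249 and 261 CPM in shMock control, 312 and 288 in shMock TGF-β1, 197 and 192 in shMTHFD2 control and 209.6 and 210.0 in shMTHFD2 TGF-β1. The 4 shMTHFD2 libraries lay below the 4 of shMock. The knockdown lowered it 1.31-fold without TGF-β1 (edgeR adjusted p = 0.0041) and 1.43-fold with TGF-β1 present (-0.52 with SE 0.08; edgeR adjusted p = 5.2e-04). TGF-β1 raised it 1.18-fold in shMock (edgeR adjusted p = 0.027), a value of 0.10 on library totals (adjusted p = 0.33). LSS, which closes the ring system to lanosterol, read 747 and 788 CPM in shMock control, 507 and 523 in shMock TGF-β1, 677 and 621 in shMTHFD2 control and 498 and 504 in shMTHFD2 TGF-β1. It had the largest fall with TGF-β1 of the 18 sterol enzymes in each line, at -0.58 in shMock (SE 0.08, edgeR adjusted p = 4.3e-05) and -0.37 in shMTHFD2 (edgeR adjusted p = 0.0024). Both calls held without any single library.

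The enzymes that trim lanosterol gave smaller changes. CYP51A1, lanosterol demethylase, read 312 and 307 CPM in shMock control, 324 and 289 in shMock TGF-β1, 252 and 276 in shMTHFD2 control and 247 and 257 in shMTHFD2 TGF-β1. MSMO1, a sterol methyl oxidase, read 379 and 386 CPM in shMock control, 387 and 361 in shMock TGF-β1, 321 and 339 in shMTHFD2 control and 287 and 282 in shMTHFD2 TGF-β1. With TGF-β1, shMTHFD2 libraries were below shMock libraries for both, at -0.28 for CYP51A1 (edgeR adjusted p = 0.038; -0.17 with offsets, adjusted p = 0.13) and -0.39 for MSMO1 (edgeR adjusted p = 0.0037; -0.27 with offsets, adjusted p = 0.016). The sterol reductase gene TM7SF2 read 50.1 and 53.4 CPM in shMock control, 39.5 and 38.5 in shMock TGF-β1, 52 and 46.2 in shMTHFD2 control and 43.9 and 46.9 in shMTHFD2 TGF-β1, with the shMock TGF-β1 pair lowest. NSDHL, a sterol dehydrogenase, read 67.5 and 66.9 CPM in shMock control, 57.2 and 43.8 in shMock TGF-β1, 55.8 and 56 in shMTHFD2 control and 45.9 and 47.8 in shMTHFD2 TGF-β1, with the shMock control pair highest. With TGF-β1 in shMock, TM7SF2 fell by 0.41 on the log2 scale (edgeR adjusted p = 0.0035), which the offsets reduced to -0.13 (adjusted p = 0.32). NSDHL fell by 0.41 (edgeR adjusted p = 0.0072), a call lost without shMock TGF-β1 2 (adjusted p = 0.091).

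EBP and DHCR7, of the last steps, fell in the knockdown without TGF-β1. EBP, the sterol isomerase, read 72.7 and 79.2 CPM in shMock control, 69.4 and 63.8 in shMock TGF-β1, 56.9 and 50.7 in shMTHFD2 control and 65.7 and 58.1 in shMTHFD2 TGF-β1. Its shMTHFD2 control pair was the lowest. DHCR7, the final reductase, read 294 and 291 CPM in shMock control, 278 and 241 in shMock TGF-β1, 234 and 201 in shMTHFD2 control and 230.1 and 233 in shMTHFD2 TGF-β1, so its 4 shMTHFD2 libraries lay below the 4 of shMock. The knockdown values without TGF-β1 were -0.50 for EBP (SE 0.10, edgeR adjusted p = 0.0033) and -0.43 for DHCR7 (SE 0.09, edgeR adjusted p = 0.0069). Without shMTHFD2 control 2 both lost their call (adjusted p = 0.057 and 0.13). With TGF-β1 the lines were at -0.11 and -0.16 for these genes, not called. With the offsets DHCR7 was called there (-0.28, adjusted p = 0.047). EBP was called higher with TGF-β1 in shMTHFD2 with the offsets (0.23, adjusted p = 0.045, against 0.20, adjusted p = 0.15). Neither gene was called in the interaction (0.39 and 0.26, adjusted p = 0.27 and 0.42). FDFT1, squalene synthase, SC5D, a sterol desaturase, and HSD17B7, a sterol ketone reductase, were called in no comparison, with log2 fold changes between -0.24 and 0.16 over the 4 pairwise comparisons. The knockdown call of SQLE without TGF-β1 was lost without shMock control 2 or shMTHFD2 control 2. The rise of SQLE with TGF-β1 in shMock lost its call without either shMock control library or shMock TGF-β1 1. The knockdown call of CYP51A1 with TGF-β1 was lost without either shMock control library, shMock TGF-β1 1 or either shMTHFD2 TGF-β1 library.

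Among the 4 regulators 3 were called, each in 1 comparison. In the knockdown without TGF-β1, where INSIG1 fell, 8.19% of all tested genes fell. In the knockdown with TGF-β1, where SREBF1 rose, 4.83% rose. With TGF-β1 in shMock, where SCAP fell, 18.1% fell. SREBF2, whose product drives mainly sterol genes, was called in no comparison. It read 309 and 282 CPM in shMock control, 304 and 294 in shMock TGF-β1, 289 and 269 in shMTHFD2 control and 313 and 324 in shMTHFD2 TGF-β1. SREBF1, whose product drives mainly fatty acid genes and which is itself an LXR target, read 169 and 155 CPM in shMock control, 149 and 151 in shMock TGF-β1, 173 and 157 in shMTHFD2 control and 185 and 185 in shMTHFD2 TGF-β1. With TGF-β1 it was higher in shMTHFD2 (0.30, edgeR adjusted p = 0.023), which is the highest group. This call of a GC-rich transcript (62.8% GC) was lost with the offsets (0.15, adjusted p = 0.18) and without any 1 of the 4 TGF-β1 libraries (adjusted p = 0.053 to 0.13). SCAP, the escort, read 60.6 and 67.7 CPM in shMock control, 53.1 and 53.6 in shMock TGF-β1, 70.7 and 63.6 in shMTHFD2 control and 61.5 and 69.9 in shMTHFD2 TGF-β1, with the shMock TGF-β1 pair lowest. Its fall with TGF-β1 in shMock (-0.27, edgeR adjusted p = 0.042) was also lost with the offsets (-0.09, adjusted p = 0.48), with median-of-ratios factors (adjusted p = 0.058) and without shMock control 2, either shMTHFD2 control library, either shMock TGF-β1 library or shMTHFD2 TGF-β1 1 (adjusted p = 0.055 to 0.29). INSIG1, which retains SCAP and is a sensitive SREBP target, read 555 and 585 CPM in shMock control, 603 and 554 in shMock TGF-β1, 448 and 429 in shMTHFD2 control and 500.4 and 491 in shMTHFD2 TGF-β1, so both shMTHFD2 pairs lay below both shMock pairs. INSIG1 fell in the knockdown without TGF-β1 (-0.38, SE 0.08, edgeR adjusted p = 0.0062; -0.33 with the offsets). That call was lost without shMock control 2 or shMTHFD2 control 2 (adjusted p = 0.076 to 0.084). With TGF-β1 the value was -0.22 (95% interval -0.39 to -0.05) and not called. The mRNA of these genes says nothing about how much SREBP protein was released.

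In the fatty acid branch 3 of 7 genes fell in the knockdown without TGF-β1 and 2 with it (all tested genes: 8.19% and 8.23%), none rose, and the branch median was -0.29 and -0.25. SCD read 1903 and 1865 CPM in shMock control, 2493 and 2300 in shMock TGF-β1, 1531 and 1542 in shMTHFD2 control and 1905 and 2031 in shMTHFD2 TGF-β1. The shMTHFD2 control pair was lowest and the shMock TGF-β1 pair highest, with the other 2 groups close together between them. In the knockdown SCD fell by 0.29 on the log2 scale without TGF-β1 and fell by 0.28 with TGF-β1 (edgeR adjusted p = 0.032 and 0.034). TGF-β1 raised it by 0.35 in shMock and 0.36 in shMTHFD2 (edgeR adjusted p = 0.004 and 0.0045). FADS2, the desaturase that begins the making of polyunsaturated fatty acids, read 874 and 848 CPM in shMock control, 891 and 832 in shMock TGF-β1, 651 and 632 in shMTHFD2 control and 679.9 and 745 in shMTHFD2 TGF-β1. As with SQLE, every shMTHFD2 library lay below every shMock library. Its knockdown values were -0.42 (SE 0.08, edgeR adjusted p = 0.0033) and -0.27 (edgeR adjusted p = 0.039; -0.40 with the offsets), and the first held without any single library. Its neighbour FADS1, another desaturase, was called in no comparison, with knockdown values of -0.10 and -0.11.

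ACLY, which makes cytosolic acetyl-CoA from citrate and so feeds both branches, read 823 and 823 CPM in shMock control, 966 and 827 in shMock TGF-β1, 661 and 626 in shMTHFD2 control and 724 and 780.1 in shMTHFD2 TGF-β1. It fell in the knockdown without TGF-β1 (-0.35, edgeR adjusted p = 0.018), and with TGF-β1 the value was -0.25 and not called. ACACA, the carboxylase of the committed step, read 92.6 and 83.7 CPM in shMock control, 109 and 103 in shMock TGF-β1, 81.9 and 91.4 in shMTHFD2 control and 90.4 and 99.5 in shMTHFD2 TGF-β1. FASN, the synthase that builds palmitate, read 687 and 610.0 CPM in shMock control, 532 and 501 in shMock TGF-β1, 577 and 483 in shMTHFD2 control and 544 and 555 in shMTHFD2 TGF-β1. In shMock the TGF-β1 pairs did not overlap the control pairs for either gene. TGF-β1 in shMock raised ACACA (0.27, edgeR adjusted p = 0.028) and lowered FASN (-0.33, edgeR adjusted p = 0.013), FASN being the member richest in GC. Neither was called with the offsets (0.15, adjusted p = 0.13, and -0.20, adjusted p = 0.062). The offsets also gave FASN a call in the knockdown without TGF-β1 (-0.27, adjusted p = 0.032, against -0.29, adjusted p = 0.061). ELOVL6, an elongase, was not called in any comparison. Its log2 fold changes were -0.37 and -0.37 in the knockdown without and with TGF-β1, and -0.30 and -0.31 with TGF-β1 in shMock and shMTHFD2. With the offsets it was called with TGF-β1 in shMock (-0.46, adjusted p = 0.0051), in shMTHFD2 (-0.33, adjusted p = 0.0499) and in the knockdown without TGF-β1 (-0.41, adjusted p = 0.028). Single libraries decided the knockdown calls of SCD without TGF-β1, lost without any 1 of the 4 control libraries or either shMTHFD2 TGF-β1 library (adjusted p = 0.057 to 0.17), and with it, lost without shMock TGF-β1 1 or either shMTHFD2 TGF-β1 library (adjusted p = 0.098 to 0.25). Its TGF-β1 call in shMTHFD2 was lost without shMTHFD2 TGF-β1 2 (adjusted p = 0.075). The FADS2 knockdown call with TGF-β1 was lost without either shMock control library, shMock TGF-β1 1 or either shMTHFD2 TGF-β1 library. The ACLY knockdown call without TGF-β1 was lost without any 1 of the 4 control libraries. The ACACA call was lost without shMock control 2 or shMock TGF-β1 1 (adjusted p = 0.13 to 0.22) and the FASN call without shMock control 1 or shMock TGF-β1 2 (adjusted p = 0.072 to 0.14).

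**Figure D5:**
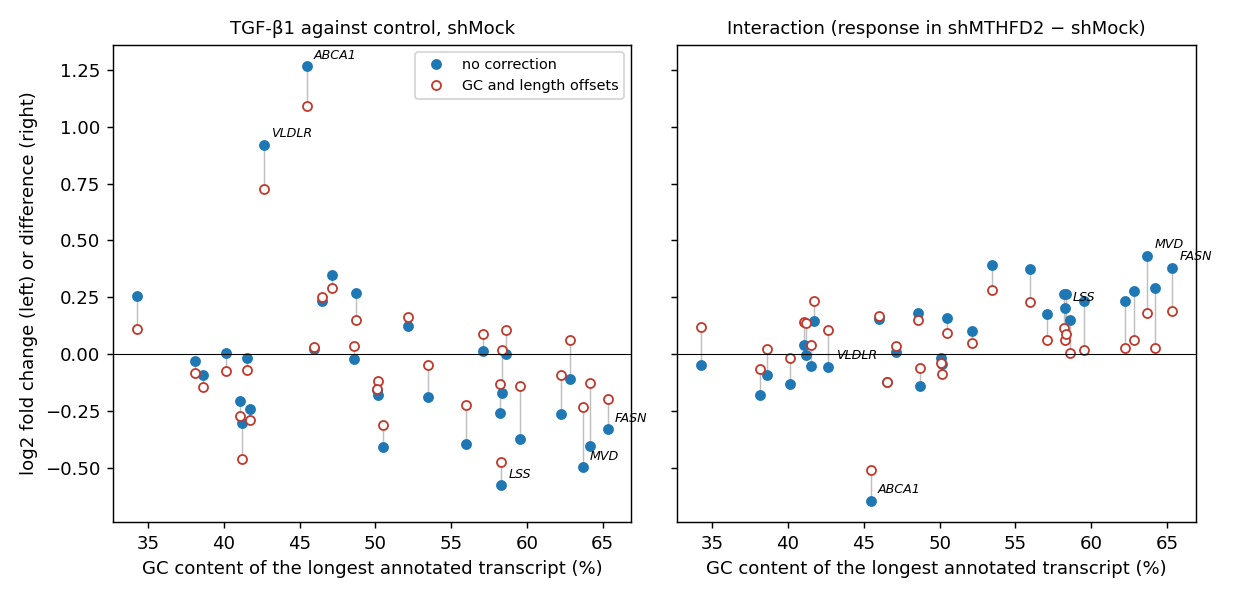
Log2 fold change of the 32 members with TGF-β1 in shMock (left) and the interaction (right) against the GC content of the longest annotated transcript (x axis, %), without correction (filled) and with GC and length offsets (open). On the left the offsets move MVD from -0.50 to -0.23 and FASN from -0.33 to -0.20, while LSS goes from -0.58 to -0.47 and ABCA1 from 1.27 to 1.09.

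In the interaction, the 8 members at an unadjusted p under 0.05 were ABCA1, MVD, EBP, FASN, FDPS, TM7SF2, SREBF1 and MVK. Of the 13493 tested genes, 1717 were under that threshold. MVD was at 0.43 (95% interval 0.16 to 0.71, edgeR adjusted p = 0.22) and FASN at 0.38 (edgeR adjusted p = 0.28), and with the offsets these were 0.18 and 0.19. The members' median interaction was 0.15 without and 0.06 with the offsets, against 0.02 and 0.01 over all genes. Of the 12 members called in the knockdown without TGF-β1, all 12 were called with the offsets, and of the 10 with TGF-β1, 7 were. The cause of the GC trend was not tested. Besides those given above, library totals ended the knockdown calls of MVD without TGF-β1 and of HMGCS1 and CYP51A1 with it (adjusted p = 0.087 to 0.19), and those of STARD4 and ACACA with TGF-β1 in shMock (adjusted p = 0.23 to 0.36). DESeq2 did not call PMVK and SCAP there (adjusted p = 0.079 to 0.08).

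Other genes of sterol handling were read from a list of 20, of which 19 were tested. In the knockdown 5 fell and 1 rose without TGF-β1, and 3 fell and 3 rose with it, against 8.19% lower and 3.25% higher, and 8.23% and 4.83%, of all tested genes. MYLIP, an LXR-induced ubiquitin ligase that sends lipoprotein receptors such as VLDLR to degradation, read 15 and 12.8 CPM in shMock control, 12.4 and 12.4 in shMock TGF-β1, 21.5 and 18.7 in shMTHFD2 control and 25.9 and 24.7 in shMTHFD2 TGF-β1. It rose in the knockdown at 0.53 (edgeR adjusted p = 0.02) and 1.03 (SE 0.14, edgeR adjusted p = 2.0e-04), in the direction of ABCA1. With TGF-β1, ABCA1 was called higher in both lines, and MYLIP was called higher in neither. The knockdown call of MYLIP without TGF-β1 was lost without shMock control 2 or shMTHFD2 control 1. TMEM97, a sterol-responsive membrane protein that binds NPC1, read 332 and 314 CPM in shMock control, 121 and 107 in shMock TGF-β1, 197 and 198 in shMTHFD2 control and 80.9 and 88 in shMTHFD2 TGF-β1. It fell in all 4 pairwise comparisons, most with TGF-β1 in shMock (-1.50, edgeR adjusted p = 2.5e-09). The lipid phosphatase gene LPIN1 fell in both knockdown comparisons (-0.43 and -0.37). With TGF-β1, NR1H3, which encodes LXRα, fell in shMock (-1.11, edgeR adjusted p = 3.7e-05) and shMTHFD2 (-0.86, edgeR adjusted p = 5.1e-04). NR1H2, which encodes LXRβ, was higher in the knockdown with TGF-β1 (0.35; 0.21 with the offsets, adjusted p = 0.11). TGF-β1 lowered 9 and raised 2 of the list in shMock and lowered 8 and raised 2 in shMTHFD2. Over all tested genes TGF-β1 lowered 18.1% and raised 17.3% in shMock, and lowered 11% and raised 12.8% in shMTHFD2, so the 2 of 19 raised are no larger a share than that of all genes in either line. NPC1, which exports cholesterol from lysosomes, rose in both (0.36 and 0.37), OSBP rose in shMock (0.33) and the lysosomal sterol carrier NPC2 in shMTHFD2 (0.29). Calls that single libraries decided were TMEM97 in the knockdown with TGF-β1, lost without shMTHFD2 TGF-β1 1 (adjusted p = 0.056), and LPIN1 there, lost without shMTHFD2 TGF-β1 2 (adjusted p = 0.054). NR1H2 was lost without either shMock TGF-β1 library or shMTHFD2 TGF-β1 2 (adjusted p = 0.052 to 0.11). NPC1 was lost in shMock without shMock TGF-β1 1 (adjusted p = 0.07) and in shMTHFD2 without shMTHFD2 control 1 or shMTHFD2 TGF-β1 2 (adjusted p = 0.069 to 0.1). OSBP was lost without shMock control 2 or shMock TGF-β1 1 (adjusted p = 0.06 to 0.072) and NPC2 without shMTHFD2 control 2 or shMTHFD2 TGF-β1 1 (adjusted p = 0.22 to 0.23). On library totals NPC1 in shMock, OSBP and NPC2 were not called (adjusted p = 0.055 to 0.16).

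Of 20 other genes of fatty acid synthesis, elongation and activation, 19 were tested, with 4 lower and 1 higher in the knockdown without TGF-β1 and 3 lower and 2 higher with it. The shares over all tested genes were 8.19% and 3.25% without TGF-β1, and 8.23% and 4.83% with it. ACACB, the carboxylase whose malonyl-CoA restrains fatty acid oxidation at mitochondria, read 12 and 10.1 CPM in shMock control, 24.5 and 25.8 in shMock TGF-β1, 16.9 and 15.2 in shMTHFD2 control and 48.1 and 47.4 in shMTHFD2 TGF-β1. It rose in all 4 pairwise comparisons, from 0.54 in the knockdown without TGF-β1 to 1.57 with TGF-β1 in shMTHFD2 (SE 0.12, edgeR adjusted p = 8.4e-08). Its cytosolic relative ACACA was not called in the knockdown (-0.03 and -0.16). SCD5, a paralog of SCD, read 19.6 and 19.9 CPM in shMock control, 65.3 and 56.8 in shMock TGF-β1, 15.6 and 17.2 in shMTHFD2 control and 42.7 and 41.2 in shMTHFD2 TGF-β1. It rose 3.09-fold with TGF-β1 in shMock and 2.56-fold in shMTHFD2, and fell in the knockdown with TGF-β1 (-0.54, edgeR adjusted p = 0.0028). SLC25A1, the mitochondrial citrate carrier that supplies ACLY, fell in the knockdown without TGF-β1 (-0.48, edgeR adjusted p = 0.0036) and with TGF-β1 in shMock (-0.55, or -0.24 with the offsets). FADS3 fell in the knockdown without TGF-β1 (-0.48) and the acyl-CoA synthetase ACSL3 with it (-0.40). TECR, an elongation reductase, was higher in the knockdown with TGF-β1 (0.30) and fell with TGF-β1 in shMock (-0.60), and the elongation dehydratase HACD3 fell with TGF-β1 in shMTHFD2 (-0.48). TGF-β1 raised 6 and lowered 3 of the list in shMock and raised 4 and lowered 1 in shMTHFD2, beside 17.3% and 18.1% of all genes in shMock and 12.8% and 11% in shMTHFD2. The lowered genes are no larger a share than that of all genes in either line. The ACACB call in untreated knockdown cells was lost without shMock control 2 or shMTHFD2 control 1 (adjusted p = 0.071 to 0.16), and SLC25A1 without shMock control 2 or shMTHFD2 control 2 (adjusted p = 0.054 to 0.071). FADS3 was lost without either shMock control library or shMTHFD2 control 2 (adjusted p = 0.055 to 0.11), and ACSL3 without shMock TGF-β1 1 or shMTHFD2 TGF-β1 1 (adjusted p = 0.053 to 0.078). TECR in the knockdown was lost without any 1 of the 4 TGF-β1 libraries (adjusted p = 0.054 to 0.19).

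Some member counts carry the uncertainty of shared sequence. In GENCODE release 29, exons of ACAT2, HMGCS1, MVK, IDI1, FDPS, FDFT1, LSS, CYP51A1, SREBF1, SREBF2, VLDLR, STARD4, ACLY, FADS1 and FADS2 overlap a gene on the opposite strand (for ACAT2 the chaperonin gene TCP1, and FADS1 and FADS2 each other), so without strand the reads cannot be told apart. CYP51A1, TM7SF2, FADS1 and FADS2 overlap an annotated gene on their own strand (VPS51 for TM7SF2, MIR1908 for FADS1 and FEN1 for FADS2). Reads in those stretches cannot be told apart even with strand. HSD17B7 has a close pseudogene copy. ABCA1, SQLE, SCD, EBP, DHCR7, MSMO1, INSIG1, MVD and FASN overlap none.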

How the data were processed

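RNA was sequenced from 8 libraries of MRC5 cells in 4 groups of 2, grouped by sample title. STAR 2.7.1a, DESeq2 1.32.0 and the build GRCh38 are listed, with no role, in the submitters' processing notes. Which counter and annotation were used, and whether strand was, is not given in the sources used here. Although named for FPKM, the table deposited by the authors holds whole-number counts per Ensembl gene ID that sum to a different total in each library, and was used as raw counts.

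Symbols came from the supplied name table (60437 of 60666 IDs). A gene was tested if it averaged 1 CPM or more across libraries (13493 genes, holding 99.8 to 99.9% of the counts). The 8 libraries entered 1 edgeR 4.0.16 quasi-likelihood fit in R 4.3.3, with TMM scaling, a mean per group and 4 residual degrees of freedom, and p-values were Benjamini-Hochberg adjusted over all tested genes. The common biological coefficient of variation was 8.79%. Each SE is the size of the log2 fold change over the root of its F value, so SE and 95% intervals are approximate. Replicates differed by more than counting error (chi-square per degree of freedom 6.09 to 9.95). The code was checked on simulated data. GC content and length are those of the longest GENCODE 29 transcript. The offsets remove a spline trend (5 degrees of freedom each) on both from each library, with values for 99.4% of tested genes.

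Alternatives were median-of-ratios factors, library totals, no filter, a mean of at least 5 CPM, DESeq2 1.42.0, only the groups compared, a replicate block, the offsets, and leaving out each library. The members and lists were chosen with earlier results of these data known. Every member is named, those called in at least 1 comparison (25) with the value of each library where described, and from each of the 2 other lists up to 2 higher and 2 lower called genes per comparison.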

Additional observations from a re-analysis of the deposited data

How the results depend on the processing

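No member's called change reversed its direction under any alternative. Over the 5 comparisons 41 changes of members were called, of which 40 were called again with median-of-ratios factors, 31 with library totals (with 19 others), 31 with GC and length offsets (with 9 others), 38 without a filter, 41 with a mean of at least 5 CPM, 37 with only the groups compared and 39 with DESeq2 (with 10 others). Leaving out single libraries kept 24 to 36 of the 41. The counts of called members then ran from 2 to 15 for the knockdown without TGF-β1 (main value 12), 3 to 11 for the knockdown with it (10), 9 to 14 for TGF-β1 in shMock (15), 3 to 8 for TGF-β1 in shMTHFD2 (4) and 0 to 1 for the interaction (0). For TGF-β1 in shMTHFD2, library totals gave 12 and GC and length offsets 7. For the interaction, no filter gave 2 members and DESeq2 gave 1. Over all genes, the interaction had 12 calls, 105 with DESeq2, 321 without a filter, 36 with a mean of at least 5 CPM, 22 with the offsets and 3 to 185 without single libraries. Calls over all genes without single libraries ran from 638 to 1676 for the knockdown without TGF-β1 (1543) and from 845 to 1818 for that with it (1762). With the replicate number as a block, the counts were 14, 9, 16, 4 and 0 members in the order above, and the same numbers did not pair the libraries: deviations of equally numbered libraries correlated at -0.020 to 0.069 between groups. Each member had at least 88 counts in every library, and each group has 2 libraries. The cause of the dependence on single libraries was not tested.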
